A study of Mus musculus with 9 samples.

Results

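The kidneys of mice that carried floxed Grpr alleles and a CDH16 Cre recombinase were compared with the kidneys of Cre-negative mice, all treated with angiotensin II (AngII), by RNA-seq. The GRPR-AngII group had the genotype CDH16 Cre+/GRPRfl/fl and the AngII group the genotype Tmemfl/fl with no Cre, with 3 libraries in each, 6 of the 9 libraries of the series. The other 3 libraries, CDH16KO-AngII, had the genotype CDH16 Cre+/Tmemfl/fl and the same treatment. All 3 groups were AngII-treated kidney, and no group without AngII was analysed here. Both the floxed locus and the presence of Cre differ between GRPR-AngII and AngII, and the 2 cannot be told apart in this comparison. Age, sex, dose and duration of AngII are not given in the labels (the Y-linked gene Ddx3y was between 24.7 and 32.7 CPM, counts scaled to library size by TMM, in all 9 libraries), nor is it said that the libraries of a group come from separate animals, so the p-values below rest on variation among these libraries, which may be technical. The deposited table listed 32593 genes, and the 12507 with an FPKM (fragments scaled to transcript length and library size) of at least 1 in 3 or more of the 9 libraries were tested.

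Grpr encodes the receptor for gastrin-releasing peptide, a bombesin-like peptide, and signals through Gq proteins to phospholipase C, inositol trisphosphate and calcium. Cdh16 encodes kidney-specific cadherin, a surface protein of tubule cells, and its promoter is used to express Cre in the tubular epithelium, so vessels, glomeruli, stroma and leukocytes of the same kidney would keep the floxed gene. AngII raises blood pressure and acts on tubules to increase sodium reabsorption and ammonia production. The RNA is that of bulk kidney, in which fewer cells of a type and less RNA per cell cannot be told apart.

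The libraries held between 40731748 and 60449117 counts, and the share of counts from mitochondria-encoded genes averaged 18.7% ± 2.40 over the AngII libraries and 20.9% ± 3.15 over the GRPR-AngII libraries (SD, n = 3). Defining kidney markers were present in all 6 libraries: the phosphate carrier gene Slc34a1 was at 6366, 5347 and 5387 CPM in AngII and 5349.6, 5039 and 6333 CPM in GRPR-AngII. Uromodulin (Umod) was at 2469, 2647 and 1428 CPM against 2103, 1544 and 1470.3 CPM. Cdh16 itself was at 763, 759.7 and 617 CPM in AngII and 526, 679.8 and 566 CPM in GRPR-AngII, overlapping ranges (log2 fold change −0.27, SE 0.16, edgeR adjusted p = 0.747). The groups did not separate cleanly over all genes. On the first principal component, which held 23.7% of the variance of the 2000 most variable genes, GRPR-AngII library 2 (−15.7) lay on the side of AngII libraries 1 and 2 (−28.6 and −21.1), and AngII library 3 (3.37) on that of GRPR-AngII libraries 1 and 3 (12.3 and 9.63). Within these 2 groups a related split was seen in 2 annotated models of Nnt, the mitochondrial transhydrogenase. The second model took 93.5%, 95.8% and 0% of their summed counts in AngII libraries 1, 2 and 3, 0%, 19.8% and 0% in the GRPR-AngII libraries, and 34.1%, 44.0% and 0% in the CDH16KO-AngII libraries. On the first component the CDH16KO-AngII libraries lay at 22.4, −6.11 and 23.7, so library 1 of that group did not share the relation. What part the Nnt split has in the results below was not tested beyond the fit with the second Nnt model as a term. That fit also called 0 genes against AngII and 44 against CDH16KO-AngII.

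**Figure D1:**
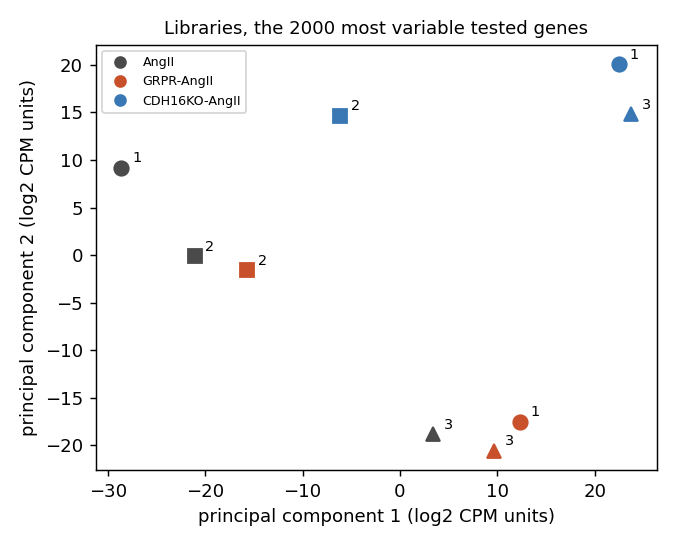
First against second principal component of log2 CPM for the 9 libraries, with colour for the group and the library number beside each point. AngII library 3 (3.37 on the first component) sits on the side of GRPR-AngII libraries 1 and 3 (12.3 and 9.63), and GRPR-AngII library 2 (−15.7) on the side of AngII libraries 1 and 2.

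No gene passed the threshold of an adjusted p of 0.05 in edgeR (0 of 12507, percent called 0, smallest adjusted p = 0.107). An unadjusted p under 0.05 was seen for 843 genes (6.74%), 438 higher (3.50%) and 405 lower (3.24%) in GRPR-AngII. The 3 values of one group lay wholly above or below the 3 of the other for 1757 genes (14.0%), 857 higher (6.85%) and 900 lower (7.20%). These shares are the background for every list below. Log2 fold changes, given as GRPR-AngII minus AngII, were above 0 for 49.0% of genes and below 0 for 51.0%, with a median of −0.0063, and 96 genes were higher and 91 lower by more than 1. DESeq2 on the same counts called 54 genes (0.432%), 32 higher and 22 lower, 29 of the 30 genes chosen below by p among them, and limma on log2(FPKM + 1) called 0. Those 30 were chosen by p on the same counts, so the DESeq2 calls are not independent support for them. The differences that follow are therefore those of smallest p, not calls of the main test. Beside a gene, "apart" means that its 3 GRPR-AngII values did not overlap the 3 AngII values. Of the named genes checked for overlap, Ace, Apoa4, Apoh, Atp1b1, Bcat1, Cry2, Cubn, Dbp, Ddit3, Enpep, Ftl1, Itpr1, Jun, Krt8, Mep1b, Nfkb2, Nmbr, Nop9, Nphs1, Palm3, Plcb1, Rcan1, Rev1, Slc12a1, Slc34a1, Sox17, Stk4, Trpm7, Txnrd2 and Umod overlap a gene annotated on the opposite strand. Anpep, Bax, Col3a1, Ddx3y, Hspa8, Misp3, Nmb, Ppp1r10 and Rhcg overlap one on their own strand, as do mt-Nd1 and mt-Ti with each other, and Ftl1, Itpr1, Plcb1 and Rev1 do so too. Part of the reads of these genes may belong to the other gene, and whether counting used strand was not given. Both genes of the targeted pathway described as apart, Plcb1 and Itpr1, are among them.

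**Figure D2:**
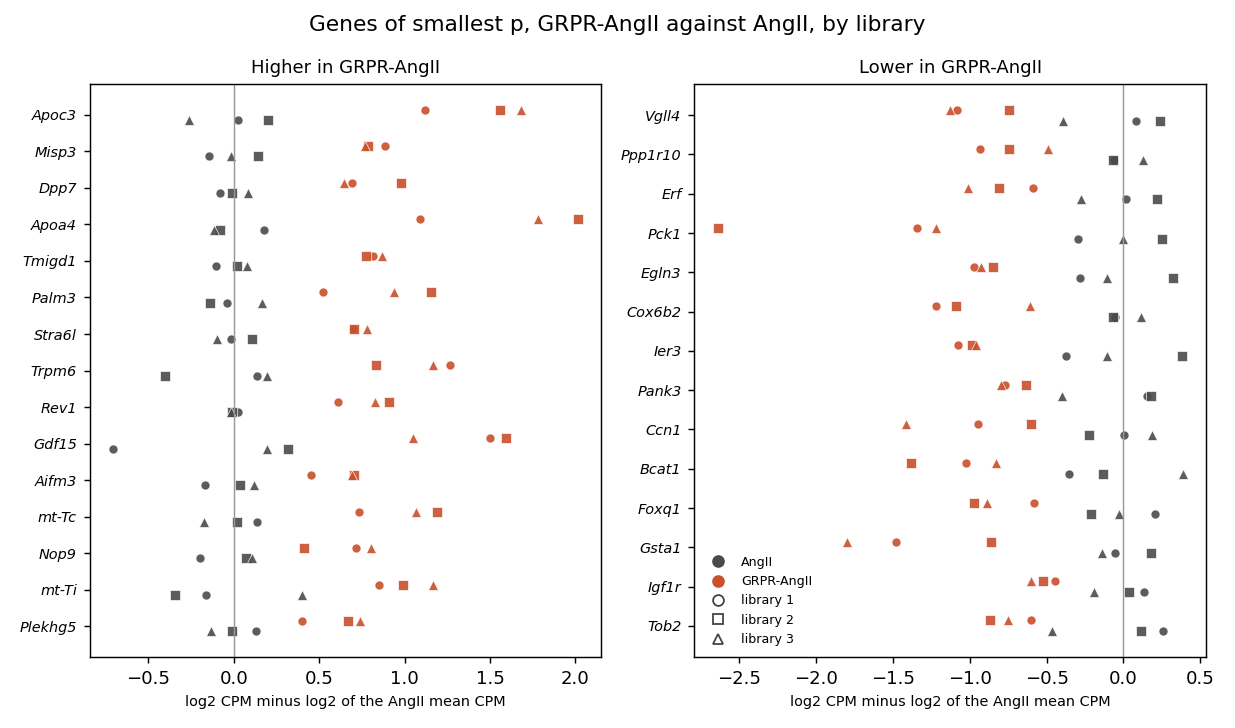
Log2 CPM of each library minus the log2 of the AngII mean CPM for 15 higher and 14 lower named genes of smallest p, with grey points for AngII, orange points for GRPR-AngII and 1 marker shape per library number. The groups do not overlap for these genes, which was a condition of choosing them, and Pck1 in GRPR-AngII library 2 is the lowest point in the plot.

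Among the components of the targeted pathway, Grpr is not analysed here, so recombination of the floxed gene was not checked. The same holds for the ligand gene Grp and the related receptor gene Brs3. Nmb, which encodes neuromedin B, the other mammalian bombesin-like peptide, stood at 1.12, 1.39 and 2.46 CPM in AngII and 1.77, 1.48 and 2.11 CPM in GRPR-AngII (log2 fold change 0.11, SE 0.37, edgeR adjusted p = 0.958). Its receptor gene Nmbr had 0, 12 and 9 counts in the AngII libraries and 0 counts in all 3 GRPR-AngII libraries, where 0 counts allow up to 0.0675 CPM (3 counts in the library with the highest such limit). That is too few counts to compare the groups (exact two-sided permutation p = 0.4). Of the 16 tested genes of the bombesin-like peptide and Gq list, 12 had a negative log2 fold change and 4 a positive one, with a median of −0.11, and 2 of the 16 (12.5%) were apart, near the background. Plcb1, a phospholipase C isoform that Gq activates, was at 16.6, 17.0 and 14.1 CPM in AngII and 13.6, 10.95 and 9.27 CPM in GRPR-AngII (log2 fold change −0.50, SE 0.20, edgeR adjusted p = 0.732). Itpr1, the inositol trisphosphate receptor that releases calcium, was at 128, 146 and 127 CPM against 115, 111 and 121 CPM (log2 fold change −0.21, SE 0.13, edgeR adjusted p = 0.747). Both were apart and lower. Rcan1, which calcineurin signalling induces, overlapped between the groups at a log2 fold change of −0.34, as did Rgs2, a brake on Gq, at −0.35. The neighbourhood of Grpr on the X chromosome was also read. GENCODE M21 places Grpr at 163513904 to 163549677 of chromosome X on GRCm38, and of 33 tested genes within 5 Mb, 10 were positive and 23 negative, with a median of −0.078. Nhs and Rab9 (2 of 33) were apart and higher, against 6.85% of all genes. Rps6ka3, Pdha1 and Car5b (3 of 33) were apart and lower, against 7.20% of all genes. Both counts were near the background, and no gene of the 33 had an unadjusted p under 0.05.

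Apoc3 and Apoa4, apolipoprotein genes of chromosome 9, were among the 15 higher genes of smallest p, without passing the threshold in edgeR. Apolipoproteins are the protein part of lipid particles, and Apoc3, which slows the clearance of triglyceride-rich particles, and Apoa4, made mainly in gut, are neighbours on GRCm38 (Apoc3 at chromosome 9, 46232933 to 46235636, minus strand; Apoa4 at chromosome 9, 46240696 to 46243459, plus strand). Apoc3 was at 8.68, 9.82 and 7.11 CPM in the AngII libraries and 18.5, 25.1 and 27.4 CPM in the GRPR-AngII libraries. Every GRPR-AngII library was above every AngII library, 2.77-fold in the mean (8.53 ± 1.36 against 23.7 ± 4.59 CPM, SD, n = 3; log2 fold change 1.47, SE 0.22, edgeR adjusted p = 0.173). Apoa4 was at 8.68, 7.24 and 7.06 CPM against 16.3, 31.0 and 26.4 CPM, again apart and 3.20-fold higher (log2 fold change 1.68, SE 0.30, edgeR adjusted p = 0.416), with GRPR-AngII library 1 the lowest of its group for both genes. Apoa1, the gene on the other side of Apoc3 and the main protein of high-density lipoprotein, was low, at 0.410, 1.02 and 0.683 CPM against 2.05, 0.724 and 1.87 CPM, and GRPR-AngII library 2 lay within the AngII range (log2 fold change 1.13, SE 0.54, edgeR adjusted p = 0.732). The next genes along the chromosome did not share the direction. Sik3 had a log2 fold change of −0.21 and Zpr1 of −0.11, both overlapping, and Bud13 was apart and lower at −0.39 (SE 0.18). These 3 were named as neighbours. Apoh, beta-2-glycoprotein I, on another chromosome, was apart and higher at 13.1, 6.74 and 11.8 against 5.17, 5.45 and 4.46 CPM in AngII (log2 fold change 1.07, SE 0.28, edgeR adjusted p = 0.629).

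Of 18 tested genes of apolipoproteins and lipoprotein handling, 3 were apart and higher (Apoc3, Apoa4 and Apoh) and 1, the cholesterol exporter gene Abca1, apart and lower (−0.39), 22.2% in all, and the list's median was 0.047. Liver and intestine also make these proteins, so their markers are given beside them. Albumin (Alb) was at 8.23, 5.02 and 8.11 CPM in AngII and 3.72, 3.76 and 10.2 CPM in GRPR-AngII, and Serpina1a, which shares 86.5% of its transcript with Serpina1b, was at 30.1, 25.1 and 14.0 CPM against 36.9, 17.8 and 60.6 CPM, with overlapping ranges for both. Of the 12 hepatocyte markers with a row, 8 were tested, 6 positive and 2 negative, with a summed level of 185 to 212 CPM in AngII and 163 to 402 CPM in GRPR-AngII. The 12 enterocyte markers summed to 374 to 424 CPM in AngII and 545 to 569.9 CPM in GRPR-AngII. These sums include Apoa4, Apoc3 and Tmigd1, the 3 of the list's 7 tested members that were apart. The sums are therefore no measure of gut cells separate from those genes. Fabp2, a defining enterocyte marker, was under the filter. The part of liver and gut cells in the apolipoprotein values was not tested. In CDH16KO-AngII, the other Cre-positive group, Apoc3 was at 26.4, 17.0 and 19.5 CPM and Apoa4 at 22.0, 10.2 and 14.5 CPM. GRPR-AngII overlapped that group for both genes (log2 fold change against it 0.18 and 0.66, edgeR adjusted p = 0.998 and 0.789).

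The sequence before the start of Apoa4 is shown because Apoa4 had the largest difference of the locus. The 250 bases come from RefSeq on GRCm38.p6 (chr9:46240594-46240843, plus strand), with capitals for the HNF4 core CAAAGTNCA, searched on both strands. HNF4 is a nuclear receptor of liver, gut and proximal tubule. The motif was chosen with the sequence in view, and 1.19% of the 32851 RefSeq windows of this length hold it. RefSeq starts Apoa4 further along than the deposited annotation does.
Apoa4: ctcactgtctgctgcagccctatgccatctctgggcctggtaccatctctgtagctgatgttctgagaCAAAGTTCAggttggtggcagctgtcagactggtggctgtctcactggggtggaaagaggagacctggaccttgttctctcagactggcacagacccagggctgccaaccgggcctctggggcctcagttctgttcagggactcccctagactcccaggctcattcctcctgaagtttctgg

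**Figure D3:**
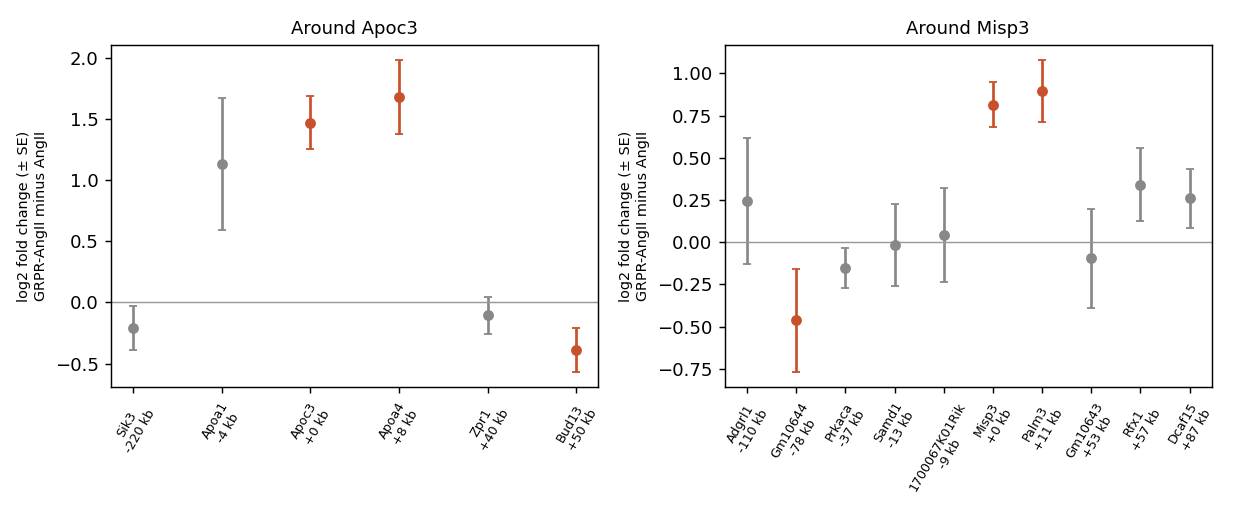
Log2 fold change (± SE) of each tested gene around Apoc3 (left) and Misp3 (right), in chromosome order, with the distance of each gene's start from the start of the centre gene in kb, and orange where the 3 against 3 libraries did not overlap. Apoc3 and Apoa4 are high at 1.47 and 1.68 and Bud13 is low at −0.39; Misp3 and Palm3 are high at 0.82 and 0.90 between neighbours from −0.46 to 0.34.

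Ammonia production and bicarbonate reclamation were described by a list of 14 genes. The proximal tubule takes up glutamine, releases ammonium from it, turns the carbon skeleton to glucose through Pck1, and returns the new bicarbonate to blood. Of 14 tested members, 10 had negative and 4 positive log2 fold changes, and 7 of the 14 were apart (against 14.0% of all genes), 6 lower and 1 higher. The list's median was −0.36, against −0.0063 over all genes. The members' log2 CPM averaged 7.69, 7.64 and 7.62 in the AngII libraries and 7.24, 7.16 and 7.33 in the GRPR-AngII libraries, and 7.31, 7.58 and 7.24 in the CDH16KO-AngII libraries, each also below the 3 AngII libraries. The median stayed negative in each of the other settings, between −0.27 and −0.44. No member was called by edgeR. The list was chosen with Pck1 already known to be low in these data, so the list gives no independent support for its direction.

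Pck1, the cytosolic phosphoenolpyruvate carboxykinase, was abundant in every library. It was at 3225, 4724 and 3951 CPM in the AngII libraries and 1562, 635 and 1705 CPM in the GRPR-AngII libraries, apart, with GRPR-AngII library 2 well below the others. The mean was 3.05-fold lower (1301 ± 581 against 3967 ± 749 CPM, SD, n = 3; log2 fold change −1.61, SE 0.36, edgeR adjusted p = 0.54), and DESeq2 called it (adjusted p = 0.0012). Its log2 fold change lay between −1.85 and −1.28 over the other settings. The CDH16KO-AngII libraries stood between, at 1825, 3132 and 1940.4 CPM (GRPR-AngII minus CDH16KO-AngII −0.82, edgeR adjusted p = 0.764).

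Glud1, glutamate dehydrogenase, which frees ammonium from glutamate inside the mitochondrion, was at 477, 555 and 378 CPM in AngII and 276, 220.3 and 252 CPM in GRPR-AngII (log2 fold change −0.91, SE 0.23, edgeR adjusted p = 0.629). DESeq2 called it too (adjusted p = 0.0291). The glutamine carrier gene Slc38a3 was at 129, 127 and 159 CPM against 68.8, 42.1 and 111 CPM, with GRPR-AngII library 2 again the lowest (log2 fold change −0.91, SE 0.36, edgeR adjusted p = 0.732). Both genes were apart. Slc4a4, the basolateral sodium bicarbonate cotransporter, was at 383, 366 and 253 CPM against 242, 219 and 169 CPM (log2 fold change −0.67, SE 0.32, edgeR adjusted p = 0.732). Cytosolic carbonic anhydrase 2 (Car2) was at 401, 413 and 356 CPM against 292, 283 and 239.7 CPM (log2 fold change −0.52, SE 0.17, edgeR adjusted p = 0.685). Car12, a membrane carbonic anhydrase named after its values were seen, was at 214, 210.0 and 177 CPM against 144, 164 and 161 CPM (log2 fold change −0.36, SE 0.16, edgeR adjusted p = 0.732). These 3 were also apart and lower. The exception was Rhcg, the ammonia channel of distal tubule and collecting duct, apart and higher at 162, 162 and 171 against 125, 113 and 147 CPM (log2 fold change 0.36, SE 0.14, edgeR adjusted p = 0.732). The apical sodium proton exchanger gene Slc9a3 overlapped between the groups, at 0.058. Glutamine uptake, glutamate deamination, Pck1, bicarbonate exit and carbonic anhydrases thus held the lower members.

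The remainder of gluconeogenesis did not follow Pck1. Of 21 tested genes of gluconeogenesis and glucose transport, 12 were negative and 9 positive with a median of −0.044, and Pck1 was the single member apart and lower. Glucose-6-phosphatase (G6pc) overlapped at 268, 232 and 193 CPM in AngII and 203, 277 and 248 CPM in GRPR-AngII (log2 fold change 0.071, SE 0.26, edgeR adjusted p = 0.96). Fructose-1,6-bisphosphatase 1 (Fbp1) overlapped as well (−0.58, SE 0.47), while Fbp2 and the ketohexokinase gene Khk were apart and higher by 0.31 and 0.25.

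Pck1 is transcribed from a promoter with a cyclic AMP response element, and the 250 bases before its RefSeq start (GRCm38.p6, chr2:173152823-173153072, plus strand) are shown because this gene had the largest log2 difference of the 15 lower genes. Capitals mark TTACGTCA, a cyclic AMP response element, searched on both strands and chosen with the sequence in view. It occurs in 0.447% of the 32851 RefSeq windows of this length. The other windows searched, those of Apoa4 and the genes named with it, did not hold it. The match describes the letters only.
Pck1: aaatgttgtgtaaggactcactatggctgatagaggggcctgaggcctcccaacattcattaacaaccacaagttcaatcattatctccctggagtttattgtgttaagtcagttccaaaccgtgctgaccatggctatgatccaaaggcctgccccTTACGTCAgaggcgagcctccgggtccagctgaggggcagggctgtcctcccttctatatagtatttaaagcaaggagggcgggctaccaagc

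**Figure D4:**
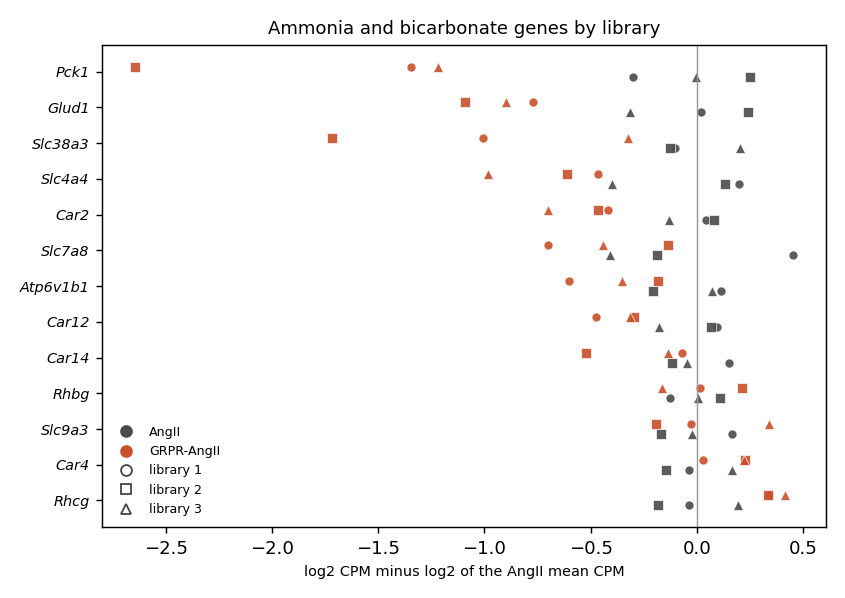
Log2 CPM of each library minus the log2 of the AngII mean CPM for 13 of the 14 ammonia and bicarbonate genes, ordered by log2 fold change, with grey for AngII, orange for GRPR-AngII and 1 marker shape per library number. Pck1, Glud1, Slc38a3, Slc4a4, Car2 and Car12 lie to the left in all 3 GRPR-AngII libraries and Rhcg to the right.

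Proximal tubule markers as a whole were not lower. Of 30 tested, 18 were positive and 12 negative with a median of 0.11, and 5 were apart (16.7%, against 14.0% of all genes), 2 higher and 3 lower. Hnf4a, the nuclear receptor of proximal tubule, was among the lower ones, at 508, 463 and 452 CPM against 437, 451 and 439 CPM (log2 fold change −0.10, SE 0.15, edgeR adjusted p = 0.878). It was apart by a very narrow gap, 451 against 452 CPM, and was named after its values were seen. The 30 markers summed to 51267 to 53017 CPM in AngII and 51124 to 68712 CPM in GRPR-AngII.

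In the Hippo pathway a kinase cascade keeps the coactivators YAP and TAZ out of the nucleus, and VGLL4 competes with YAP for TEAD factors. Of 18 tested members, 13 were negative and 5 positive with a median of −0.14, and 5 were apart (27.8%, against 14.0% of all genes), all lower. The list was chosen with earlier results of these data known. Vgll4 and Ccn1, named below, were also among the genes chosen for being apart. The share of members apart is therefore no independent support for a direction of the list. Vgll4 was at 20.6, 23.1 and 14.9 CPM in AngII and 9.19, 11.6 and 8.91 CPM in GRPR-AngII, 1.97-fold lower (log2 fold change −0.98, SE 0.19, edgeR adjusted p = 0.467). Ccn1, a secreted matricellular protein and a target of YAP, was at 32.4, 27.7 and 36.8 CPM against 16.8, 21.3 and 12.1 CPM (log2 fold change −0.95, SE 0.22, edgeR adjusted p = 0.54). Ccn2, the related target, overlapped, with a positive value of 0.31 (SE 0.24). The kinase gene Stk4 (−0.26), the adaptor gene Mob1a (−0.32) and Wwtr1, which encodes TAZ and was named after its values were seen (−0.17), were the other 3 that were apart. Yap1 overlapped at −0.12. The lower members thus included a YAP competitor, kinase components, a coactivator and 1 target, with a second target on the other side.

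The other lower genes of smallest p had varied functions. Ppp1r10, a targeting subunit of protein phosphatase 1, was at 58.3, 58.0 and 66.4 CPM in AngII and 31.9, 36.3 and 43.3 CPM in GRPR-AngII (log2 fold change −0.71, SE 0.15, edgeR adjusted p = 0.54). The ETS repressor gene Erf was at 40.5, 46.5 and 33.1 CPM against 26.6, 22.8 and 19.8 CPM (log2 fold change −0.79, SE 0.18, edgeR adjusted p = 0.54), and Igf1r, the IGF-1 receptor, at 129, 121 and 103 CPM against 86.2, 81.6 and 77.4 CPM (log2 fold change −0.52, SE 0.13, edgeR adjusted p = 0.602). For all 3 the groups were apart by the rule of choice. Egln3, the oxygen-sensing prolyl hydroxylase that hypoxia-inducible factors induce, was at 9.46, 14.4 and 10.7 CPM against 5.85, 6.39 and 6.05 CPM (log2 fold change −0.92, SE 0.21, edgeR adjusted p = 0.54). Ier3, an immediate early gene, was at 22.7, 38.3 and 27.3 CPM against 13.9, 14.8 and 15.1 CPM (log2 fold change −1.01, SE 0.23, edgeR adjusted p = 0.54). Its AngII values varied more than its GRPR-AngII values. Bcat1, a branched-chain aminotransferase, was at 21.7, 25.3 and 36.3 CPM against 13.6, 10.7 and 15.6 CPM (log2 fold change −1.06, SE 0.25, edgeR adjusted p = 0.54), and its reads cannot be separated from those of Gm15687 on the opposite strand if counting ignored strand. The log2 fold change of the pantothenate kinase gene Pank3 was −0.73, that of the antiproliferative gene Tob2 −0.74 and that of the cytochrome oxidase subunit gene Cox6b2 −0.95. Foxq1, a forkhead factor with −0.81, shares 66.1% of its transcript with another annotated gene, so its reads are uncertain. The edgeR adjusted p was 0.605 for Tob2 and 0.54 for Pank3, Cox6b2 and Foxq1. Beyond Ier3 and Ccn1, the immediate early list showed no common direction. Of its 29 tested members, 14 were positive and 15 negative, and Fos (1.02, 2.09 and 6.83 CPM in AngII, 5.41, 1.56 and 0.630 CPM in GRPR-AngII) and Jun (0.13) overlapped.

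Of 19 tested markers of the loop of Henle and distal convoluted tubule, 9 were positive and 10 negative with a median of −0.0057, and 5 were apart (26.3%, against 14.0% of all genes), 4 higher and 1 lower. Trpm6, the apical magnesium channel of this segment, was at 9.89, 6.81 and 10.3 CPM in AngII and 21.7, 16.0 and 20.2 CPM in GRPR-AngII, 2.14-fold higher (log2 fold change 1.10, SE 0.23, edgeR adjusted p = 0.54). Trpm7, its broadly expressed partner, was at 86.8, 93.2 and 112 CPM against 146, 128 and 161 CPM (log2 fold change 0.58, SE 0.16, edgeR adjusted p = 0.647). The sodium calcium exchanger gene Slc8a1 was at 42.3, 50.4 and 55.3 CPM against 74.1, 63.3 and 68.7 CPM (log2 fold change 0.48, SE 0.21, edgeR adjusted p = 0.732). Parvalbumin (Pvalb), a calcium buffer of the early distal convoluted tubule, was at 9.04, 16.6 and 14.3 CPM against 28.9, 19.98 and 20.2 CPM (log2 fold change 0.79, SE 0.35, edgeR adjusted p = 0.732). These were the 4 that were apart and higher. Slc12a1, the loop cotransporter, was apart and lower at 773, 779 and 842 against 1145, 1157 and 899 CPM (log2 fold change −0.42, SE 0.31, edgeR adjusted p = 0.784). The thiazide-sensitive cotransporter gene Slc12a3 overlapped at 0.23. In CDH16KO-AngII, which shares the AngII controls, the differences from AngII were 0.93 for Trpm6, 0.45 for Trpm7, 0.86 for Slc8a1 and 1.70 for Pvalb, and GRPR-AngII overlapped that group for all 4.

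Of 25 tested distal sodium transport genes, 14 were negative (56.0%, against 51.0% of all genes) and 11 positive, with a median of −0.14, and 2 were apart (8.0%, against 14.0% of all genes), Slc12a1 and the potassium channel gene Kcnj1 (−0.28, SE 0.14). The sodium pump subunit gene Atp1b1 (−0.53) overlapped, AngII library 3 being within the GRPR-AngII range. The epithelial sodium channel gene Scnn1a overlapped at −0.24. In the renin-angiotensin and vasoactive list, 15 of 22 members were negative, and 4 were apart (18.2%, against 14.0% of all genes), 3 lower and 1 higher. The aminopeptidase gene Enpep, which degrades AngII, was among the lower ones, at 50.8, 60.1 and 53.3 against 84.7, 76.2 and 64.6 CPM (log2 fold change −0.46, SE 0.23, edgeR adjusted p = 0.732). Renin (Ren1) was at 76.5, 49.5 and 58.5 CPM in AngII and 76.0, 50.6 and 36.5 CPM in GRPR-AngII, Ace had a log2 fold change of 0.15 and Agt of 0.55, and none of these 3 was apart.

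Surface and lysosomal proteins of the proximal tubule had values in both directions. Tmigd1, an immunoglobulin-domain adhesion protein of the brush border, was at 124, 135 and 141 CPM in AngII and 234, 228 and 244 CPM in GRPR-AngII, with small spread in both groups (log2 fold change 0.82, SE 0.17, edgeR adjusted p = 0.54). In CDH16KO-AngII it was at 77.3, 110.4 and 73.2 CPM, below AngII, and the difference between the 2 Cre-positive groups, 1.44, passed the threshold (edgeR adjusted p = 0.0117). Dpp7, a lysosomal dipeptidyl peptidase, was at 58.1, 61.0 and 65.2 CPM in AngII and 99.4, 121 and 96.2 CPM in GRPR-AngII (log2 fold change 0.78, SE 0.13, edgeR adjusted p = 0.273). Mep1b, a meprin subunit of the brush border, was at 82.7, 89.9 and 96.4 CPM against 134, 103 and 203 CPM (log2 fold change 0.71, SE 0.25, edgeR adjusted p = 0.703). Amnionless (Amn), the membrane anchor of cubilin, was at 142, 155 and 150.2 CPM against 199, 204 and 220.2 CPM (log2 fold change 0.48, SE 0.15, edgeR adjusted p = 0.685). Against these, the aminopeptidase N gene Anpep was lower, at 148, 138 and 121 CPM in AngII and 92.4, 96.5 and 104 CPM in GRPR-AngII (log2 fold change −0.47, SE 0.16, edgeR adjusted p = 0.685). All 5 were apart. Megalin (Lrp2, 0.14) and cubilin (Cubn, 0.21) overlapped. In the whole list of megalin endocytosis, lysosomal and brush border peptidases, 14 of 35 were positive and 21 negative, and 8 were apart (22.9%), 5 higher and 3 lower. Cyp7b1, an oxysterol hydroxylase counted among the proximal tubule and the female-biased markers, was apart and higher at 104, 136 and 161 against 80.2, 72.4 and 53.3 CPM (log2 fold change 0.96, SE 0.25, edgeR adjusted p = 0.629), with CDH16KO-AngII at 66.8, 39.4 and 40.6 CPM (difference 1.45, edgeR adjusted p = 0.0688).

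Misp3 and Palm3, neighbours on chromosome 8 on opposite strands (Misp3 at chromosome 8, 84010222 to 84012171, minus strand; Palm3 at chromosome 8, 84021471 to 84030295, plus strand), were both apart and higher. Misp3 was at 16.2, 19.7 and 17.7 CPM in AngII and 32.9, 30.8 and 30.5 CPM in GRPR-AngII (log2 fold change 0.82, SE 0.13, edgeR adjusted p = 0.273). Palm3, a paralemmin of the plasma membrane, was at 27.1, 25.3 and 31.2 CPM against 40.1, 62.0 and 53.5 CPM (log2 fold change 0.90, SE 0.18, edgeR adjusted p = 0.54). Of the 10 tested genes within 100 kb, these 2 were apart and higher and 1, Gm10644, apart and lower (−0.46). Prkaca, a protein kinase A catalytic subunit gene on the Misp3 side, overlapped at −0.15, and Rfx1, beyond Palm3, at 0.34. In CDH16KO-AngII, Misp3 was at 31.8, 27.8 and 26.9 CPM and Palm3 at 48.3, 38.3 and 52.1 CPM, overlapping GRPR-AngII for both. The junction gene Cdh1, E-cadherin, was apart and lower at 105, 99.2 and 72.6 against 119, 117 and 115 CPM (log2 fold change −0.34, SE 0.16, edgeR adjusted p = 0.732). In the list of proximal tubule adhesion and junction genes that holds Tmigd1, Misp3 and Cdh1, 15 of 22 were negative, the median was −0.14, and 4 were apart (18.2%), 2 higher and 2 lower.

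Gdf15, a secreted factor induced by mitochondrial and endoplasmic reticulum stress, was at 5.97, 12.1 and 11.1 CPM in AngII and 27.6, 29.4 and 20.2 CPM in GRPR-AngII, 2.64-fold higher (log2 fold change 1.40, SE 0.31, edgeR adjusted p = 0.54), and CDH16KO-AngII was at 16.7, 8.60 and 14.6 CPM. Ddit3 (CHOP), a stress-induced transcription factor, was at 9.59, 14.2 and 10.6 CPM against 15.1, 16.7 and 16.8 CPM in GRPR-AngII (log2 fold change 0.50, SE 0.18, edgeR adjusted p = 0.732). Atf4, which acts upstream of both, was at 88.1, 84.6 and 87.4 CPM against 92.3, 101 and 113 CPM (log2 fold change 0.24, SE 0.12, edgeR adjusted p = 0.736). All 3 were apart. The chaperone gene Hspa8, whose transcript shares 64.7% with another gene, was apart and higher by 0.37. Over the heat shock and unfolded protein list, 17 of 23 were positive and 6 negative with a median of 0.13, and 3 were apart (13.0%), a share near the background. Without GRPR-AngII library 2 that median was −0.081. The pro-apoptotic gene Bax was at 39.7, 41.7 and 62.2 CPM in AngII and 86.8, 66.5 and 75.8 CPM in GRPR-AngII (log2 fold change 0.67, SE 0.20, edgeR adjusted p = 0.683), and the apoptosis and necroptosis list had a median of −0.028. Rev1, a translesion DNA polymerase, was at 9.05, 8.84 and 8.79 CPM in AngII and 13.6, 16.7 and 15.8 CPM in GRPR-AngII (log2 fold change 0.79, SE 0.17, edgeR adjusted p = 0.54). Stra6l, a homologue of the vitamin A transporter Stra6, was at 18.7, 20.3 and 17.6 CPM against 30.6, 30.7 and 32.5 CPM (log2 fold change 0.73, SE 0.15, edgeR adjusted p = 0.54). Both were apart, with little spread in AngII. The log2 fold changes of the other higher genes were 0.62 for the mitochondrial gene Aifm3, 0.61 for the guanine nucleotide exchange factor gene Plekhg5 and 0.65 for the nucleolar gene Nop9 (edgeR adjusted p = 0.54 for each). Rev1 and Nop9 overlap genes of the opposite strand. Of the mitochondrial tRNA genes, mt-Tc was at 4.47, 4.12 and 3.60 CPM against 6.76, 9.28 and 8.502 CPM and mt-Ti, which overlaps mt-Nd1, at 5.90, 5.19 and 8.68 CPM against 11.9, 13.1 and 14.8 CPM. The protein-coding mitochondrial genes were positive in 13 of 13 with a median of 0.25 and none was apart, and the mitochondrial share of counts stood at 17.2% to 21.5% in AngII and 19.1% to 24.6% in GRPR-AngII.

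Antioxidant, iron and STING-related genes differed one by one. Gsta1, a glutathione transferase, was at 14.0, 16.4 and 13.2 CPM in AngII and 5.21, 7.98 and 4.16 CPM in GRPR-AngII (log2 fold change −1.32, SE 0.32, edgeR adjusted p = 0.602), but a predicted gene matches the whole of its transcript, so its reads cannot be assigned with certainty. Nfe2l2 (NRF2), the regulator of antioxidant genes, was at 82.3, 74.6 and 61.3 CPM against 54.6, 60.8 and 48.1 CPM (log2 fold change −0.42, SE 0.17, edgeR adjusted p = 0.732), and its target gene Nqo1 overlapped at 0.0024. Nox4, the peroxide-producing oxidase of tubule, was at 194, 173 and 138 CPM against 127, 118 and 122 CPM (log2 fold change −0.46, SE 0.22, edgeR adjusted p = 0.732), and the mitochondrial thioredoxin reductase gene Txnrd2 at 18.6, 19.6 and 18.9 CPM against 25.1, 25.3 and 25.2 CPM (log2 fold change 0.40, SE 0.14, edgeR adjusted p = 0.718). Of 43 tested antioxidant genes, 20 were positive and 23 negative, and 7 were apart (16.3%). In the ferroptosis and iron list, 12 of 24 were positive and 12 negative, and 5 were apart (20.8%, against 14.0% of all genes), 2 higher and 3 lower. Acsl4, the acyl-CoA synthetase named in the series title, was apart by a narrow gap at 20.1, 19.8 and 19.5 CPM in AngII and 15.9, 19.3 and 15.5 CPM in GRPR-AngII (log2 fold change −0.23, SE 0.18, edgeR adjusted p = 0.796). The iron exporter gene Slc40a1 was apart and lower (−0.38) and Ftl1, which shares 94.0% of its transcript with a pseudogene, apart and higher (0.50). Sting1, the STING gene, was under the filter, at 4.62, 1.77 and 5.33 CPM in AngII. Its 3 GRPR-AngII values, 2.90, 2.90 and 2.68 CPM, lay inside the AngII range (exact two-sided permutation p = 0.4). CDH16KO-AngII was at 2.15, 2.24 and 2.04 CPM. Of 33 tested STING and interferon genes 1 was apart (3.03%): Rsad2 (viperin), an interferon-induced antiviral enzyme, at 18.5, 15.2 and 14.4 CPM in AngII and 23.0, 26.4 and 24.1 CPM in GRPR-AngII (log2 fold change 0.61, SE 0.17, edgeR adjusted p = 0.647). In the NF-kB and cytokine list 15 of 19 were negative with 1 apart, Nfkb2 (−0.33).

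Of 26 tested interstitial matrix and myofibroblast genes, 20 were positive and 6 negative with a median of 0.23, and 2 were apart (7.69%, against 14.0% of all genes). Col6a6, a collagen VI chain, was one of them, at 2.19, 1.96 and 1.89 CPM in AngII and 6.32, 15.6 and 11.9 CPM in GRPR-AngII (log2 fold change 2.48, SE 0.33, edgeR adjusted p = 0.107). It had the smallest p of all tested genes. Among the edgeR fits it was called only without GRPR-AngII library 1, the lowest of its group for this gene (edgeR adjusted p = 0.0203). CDH16KO-AngII was higher still at 19.2, 27.3 and 35.8 CPM. The receptor gene Tgfbr2 was the other, apart and lower (log2 fold change −0.45, SE 0.15, edgeR adjusted p = 0.685). The fibrillar collagens Col1a1 (0.35), Col1a2 (0.42) and Col3a1 (0.36) overlapped. Stromal markers, 12 of 15 positive, summed to 245 to 342 CPM in AngII and 310.0 to 367 CPM in GRPR-AngII, and their part in the matrix values was not tested. Of 21 basement membrane genes, 16 were positive and 5 negative, with a median of 0.14. Injury genes were negative in 17 of 26, and 2 were apart (7.69%, against 14.0% of all genes), Anxa2 (−0.25) and Krt8, a keratin of injured tubule that was at 119, 140.0 and 115 CPM in AngII and 111, 76.3 and 96.0 CPM in GRPR-AngII (log2 fold change −0.40, SE 0.16, edgeR adjusted p = 0.732). Lcn2 overlapped, at 7.36, 4.33 and 26.1 CPM against 4.65, 9.33 and 4.30 CPM, AngII library 3 being the highest.

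Leukocyte markers varied between the libraries of a group. None of the 15 tested macrophage and dendritic cell markers and none of the 9 T, NK and B cell markers was apart. The calprotectin genes were higher in 2 of 3 GRPR-AngII libraries: S100a9 was at 0.677, 0.997 and 0.524 CPM in AngII and 4.99, 2.80 and 0.877 CPM in GRPR-AngII (log2 fold change 1.97, SE 0.54, edgeR adjusted p = 0.642), and S100a8 at 0.160, 0.696 and 0.774 CPM against 1.99, 1.66 and 0.427 CPM. B cell genes stood out in GRPR-AngII library 2, with Cd79a at 1.19, 8.40 and 0.765 CPM in the 3 GRPR-AngII libraries and 0.570, 1.73 and 1.78 CPM in AngII. Hemoglobin alpha (Hba-a1) was low in library 1 of both groups, at 27.9, 403 and 472 CPM in AngII and 48.8, 609 and 694 CPM in GRPR-AngII. Its gene shares 77.0% of its transcript with Hba-a2. Endothelial markers were positive in 13 of 18, with 3 apart and higher (16.7%), among them the arterial factor gene Sox17 (0.60). Their defining members Pecam1 (−0.12) and Cdh5 (−0.20) overlapped, and so did the podocyte gene Nphs1 (0.05).

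Clock and fatty acid genes differed by little. Of 22 tested circadian genes, 16 were negative and 6 positive with a median of −0.16, and the members' log2 CPM averaged 4.56, 4.51 and 4.53 in AngII and 4.35, 4.40 and 4.40 in GRPR-AngII, without overlap. Of the 22, 2 members were apart (9.09%), Cry2 (log2 fold change −0.46, SE 0.20, edgeR adjusted p = 0.732) and the PAR-domain factor gene Hlf (log2 fold change −0.48, SE 0.21, edgeR adjusted p = 0.732). The clock output gene Dbp varied widely, at 14.0, 10.8 and 45.4 CPM in AngII and 8.59, 5.79 and 18.1 CPM in GRPR-AngII. The hour of tissue collection is not given in the labels, and its part was not tested. Fatty acid oxidation and PPAR target genes were negative in 34 of 48 with a median of −0.12, and 7 were apart (14.6%), all lower, among them Eci1 (−0.29), Decr2 (−0.23) and Phyh (−0.35). The corresponding median of CDH16KO-AngII minus AngII, with the same controls, was −0.64. Nuclear-encoded respiratory chain genes had a median of 0.039, with 0 of 38 apart, and sterol synthesis genes of 0.012, with 2 of 27 apart, Mvd (0.35) and Scd1 (0.85), both higher.

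**Figure D5:**
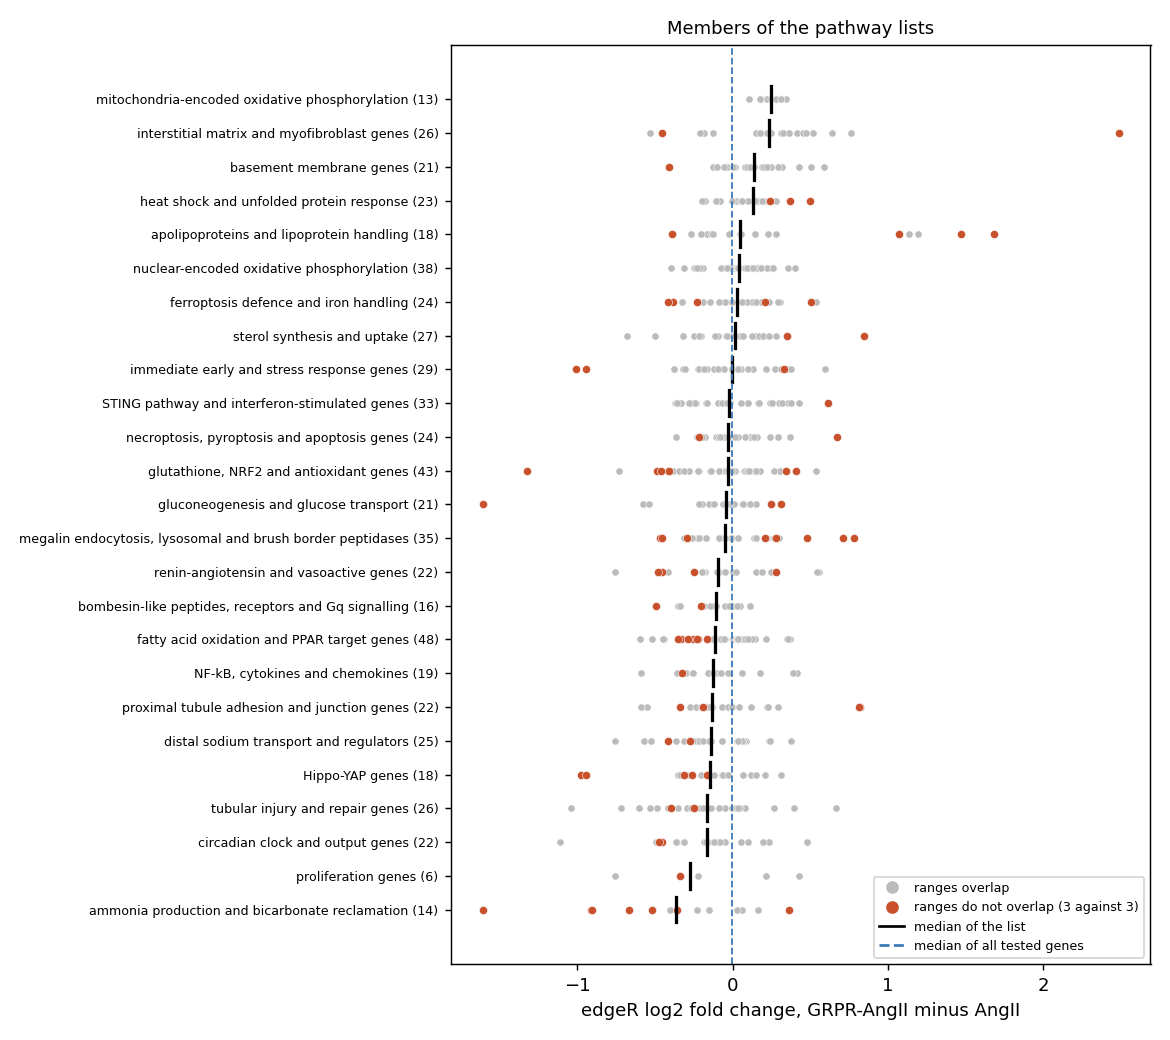
Log2 fold change of every tested member of the pathway lists with at least 5 tested members, 1 row per list with the number of members in brackets, black bars for list medians and orange for members whose 3 against 3 libraries did not overlap. The ammonia list has the lowest median (−0.36) and 7 orange points, and the dashed line is the median of all tested genes.

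GRPR-AngII was last set against CDH16KO-AngII, both Cre-positive, which leaves the floxed locus as the labelled difference. Here edgeR called 18 genes (0.144%), 7 higher and 11 lower in GRPR-AngII, 6.24% had an unadjusted p under 0.05, and ranges did not overlap for 9.96% of genes. The called genes named below all belong to the 7 higher ones, and none of the 11 lower ones is named. Tmigd1 was the one called gene among the 30 of smallest p against AngII. Fbp2, which encodes the muscle form of fructose-1,6-bisphosphatase, was called (difference 1.15, edgeR adjusted p = 0.0288), and so was the growth factor gene Fgf1 (1.16, edgeR adjusted p = 0.0194). Against AngII these 2 genes had log2 fold changes of 0.31 and 0.51. Fgf1 was at 149, 131 and 120.2 CPM in AngII, 163, 207 and 197 CPM in GRPR-AngII and 76.5, 90.5 and 86.4 CPM in CDH16KO-AngII, 3 ranges without overlap. The pantetheinase gene Vnn1 (1.58, edgeR adjusted p = 0.0214) and the acyl-CoA thioesterase gene Acot2 (0.89, edgeR adjusted p = 0.0358) were called as well, at log2 fold changes of 0.029 and 0.021 against AngII. Fgf1, Vnn1 and Acot2 were named after their values were seen. Cyp7b1 (1.45) missed the threshold (edgeR adjusted p = 0.0688). The count moved with single libraries. Without GRPR-AngII library 1 edgeR called 0 genes (smallest adjusted p = 0.0502, 669 genes at an unadjusted p under 0.05), without GRPR-AngII library 2 it called 6, without library 3 it called 5, and without CDH16KO-AngII library 1 or 3 it called 50 or 2.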

How the data were processed

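Each library held 1 kidney RNA sample, prepared with RNeasy and SMARTER mRNA-Seq kits per the labels' protocols. The aligner, the counting program and its strand setting were not given in the sources used here. The authors deposited FPKM values, rounded to 2 decimals, and estimated counts per gene, as whole numbers, in 1 table, per the file headers. The builds named in the submitters' processing notes are GRCm38 and mm10. From the counts, edgeR 4.0.16 (R 4.3.3) fitted the 9 libraries in 1 quasi-likelihood model with TMM scaling, and p-values were adjusted by Benjamini-Hochberg over 12507 genes with FPKM of at least 1 in 3 libraries, with a threshold of 0.05. CPM used the TMM-scaled totals. The fit was tested on simulated data. DESeq2 1.42.0, limma 3.58.1, other filters and scalings, a replicate block and leaving out each library were alternatives. Named genes were the 15 higher and 15 lower of smallest p whose groups did not overlap and whose group mean FPKM reached 2, leaving out predicted genes, clones and pseudogenes, the first 3 members of each list with its 5 of smallest p, and neighbours. The comparison and the gene lists were chosen with earlier results of these data known. Shared transcript sequence was measured with BLAST+ 2.17.0 at 95% identity. With 3 against 3 libraries an exact permutation test cannot go below p = 0.1. Some genes that fall under these rules are not reported here.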

Additional observations from a re-analysis of the deposited data

Results flagged for a closer look

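Tmigd1, the brush border adhesion gene, differed between the 2 Cre-positive groups. It was at 234, 228 and 244 CPM in GRPR-AngII and 77.3, 110.4 and 73.2 CPM in CDH16KO-AngII, with AngII between them at 124, 135 and 141 CPM. Its effect in GRPR-AngII minus its effect in CDH16KO-AngII was 1.44 on the log2 scale (edgeR adjusted p = 0.0117), a direct test in which the AngII controls cancel. All 3 GRPR-AngII libraries lay above AngII, which was a condition of choosing the gene, and all 3 CDH16KO-AngII libraries below it. Without GRPR-AngII replicate 1 no gene was called in this contrast by edgeR (smallest adjusted p = 0.0502, 669 genes at an unadjusted p under 0.05), so Tmigd1 was not called without that library. The cause was not tested.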

How the results depend on the processing

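For GRPR-AngII against AngII, edgeR and limma called 0 genes under each alternative that kept all libraries, and DESeq2 called 54. DESeq2 gave 738 genes no adjusted p. Leaving out 1 library gave from 0 to 2 calls: 2 without AngII replicate 3 (Nnt and 4933427D14Rik) and 1 without GRPR-AngII replicate 1 (Col6a6). For GRPR-AngII against CDH16KO-AngII the 18 calls became 175 with DESeq2, 41 with no FPKM filter, 5 with an FPKM of at least 5, 9 with the 2 groups alone and 44 with the second Nnt model as a term, which was chosen after seeing the data. Leaving out 1 library gave from 0 to 50. The cause was not tested. The 30 genes of smallest p kept their direction in each alternative that tested them (22 were tested at an FPKM of at least 5 and 28 without mitochondria-encoded genes), and 29 of them were called by DESeq2. The 30 were chosen on these same counts, by p and by groups that did not overlap. Their kept direction and the DESeq2 calls were therefore largely set by that choice. The median of each of the 42 lists was taken again under several of the alternatives. Counted over lists and alternatives, 602 of these medians stayed within the spread between libraries and 27 moved beyond it. Among the latter, the antioxidant median was 0.059 without AngII replicate 2 and the renin-angiotensin median 0.0019 without AngII replicate 1.

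Not every pair of libraries with the same number deviated together (correlations of −0.10, 0.11 and 0.22), so the numbers were not taken as pairs. The fit with the number as a replicate block called 0 genes against AngII, with 1270 at an unadjusted p under 0.05 against 843, and 13 against CDH16KO-AngII. Scaling by library totals moved the median of all genes to −0.083.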

Other observations

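Some genes were nearly absent from a single library. For 39 tested genes the lowest of the 9 libraries was more than 5-fold under the next lowest, which was at least 5 CPM. These lowest values were spread over all 9 libraries, with 7 in GRPR-AngII library 1, 6 in GRPR-AngII library 3 and 6 in AngII library 3, and 1 each in AngII library 2 and GRPR-AngII library 2. Nr3c2, the mineralocorticoid receptor gene, was at 12.1, 13.8 and 10.8 CPM in AngII and 11.2, 1.48 and 8.97 CPM in GRPR-AngII, low in GRPR-AngII library 2. Tgfbr1, a TGF-beta receptor gene, was at 33.0, 1.60 and 37.9 CPM against 36.4, 29.9 and 32.6 CPM, low in AngII library 2. Jpt2 was at 43.4, 36.6 and 23.2 CPM against 1.21, 27.0 and 21.3 CPM, low in GRPR-AngII library 1. The group means of these genes are set by 1 library each.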
